A study of Mus musculus with 92 samples.

Results

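The genes described here encode 10 enzymes that liver uses to break down amino acids: Sds, Sdsl, Tat, Tdo2, Hal, Uroc1, Ftcd, Prodh, Haao and Hpd. They were picked by name, and their symbols were traced to gene identifiers through the authors' deposited comparison tables. All 10 were among the 17275 genes with usable lines in the deposited gene table, and all 10 were among the 12617 genes that passed the filter on low counts.

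Livers of HET3 mice, whose genomes mix those of several inbred strains, were profiled by RNA sequencing in both sexes, at 2 ages and on 3 diets. The female groups used here were 24-month animals on Low Amino Acid (7 libraries), Low Isoleucine (8) and Control (8), and 6-month animals on Low Amino Acid (8), Low Isoleucine (7) and Control (8). Every animal was fasted overnight before the liver was taken, so all groups, controls included, show the fasted state. Per the labels the 24-month animals began their diet at 6 months of age and the 6-month animals at 9 weeks, whereas the series description gives 13 weeks on diet for both. Age at killing, age when the diet began and, if the labels hold, diet duration therefore cannot be told apart. The sources used here do not state the composition of the diets. HET3 animals of a group differ in genotype. The titles of 19 of the 46 libraries used share a number with another library of the same group (8 such numbers), and the labels do not say whether it marks a cage, a litter or something else. The libraries may therefore not all be independent, and p-values measure the spread between them.

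Library totals ranged from 7.82 M to 27.6 M estimated counts (M, 1000000 counts), with a median of 22.6 M over 46 female libraries. The shallowest library, 24-month Low Isoleucine replicate 5, stood alone, since every other total was at least 14.3 M. A library of 6-month Low Isoleucine, replicate 3, was left out by the rule that defined the libraries to compare. It held 50.8 CPM of the Y-linked gene Kdm5d, against at most 0.639 CPM in any other female library. CPM are counts per 1000000 counts, which for the enzymes are also scaled by TMM, a method that balances libraries. The liver label fitted the data: 7 hepatocyte markers averaged 12.2 to 13.5 log2 CPM in every library, while 8 pancreas acinar markers summed to at most 1.501 CPM. Several 24-month livers stood apart in acute phase genes, a group that hepatocytes raise in inflammation. Their mean ran from 7.99 to 11.5 log2 CPM in 24-month Low Amino Acid livers, 8.01 to 9.35 in 24-month Low Isoleucine livers and 7.84 to 11.3 in 24-month controls, against 7.54 to 8.57 over all 6-month livers. In whole tissue, fewer cells of a type and less RNA per cell cannot be told apart.

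Amino acids beyond what protein synthesis needs are broken down chiefly in liver, and the products enter glucose synthesis, energy metabolism or the folate pool while the nitrogen goes to urea. Many of these enzymes are most abundant in periportal hepatocytes, the cells next to the incoming blood. In rat liver, Sds, Tat, Tdo2 and Hal are textbook cases of enzymes induced by dietary protein, glucagon or glucocorticoids.

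The 10 enzymes fall into 5 routes. Tat, tyrosine aminotransferase, and Hpd, hydroxyphenylpyruvate dioxygenase, catalyse the opening steps of tyrosine breakdown. Tdo2, tryptophan dioxygenase, opens the kynurenine route, and Haao, hydroxyanthranilate dioxygenase, acts late in it. Hal, histidine ammonia-lyase, makes urocanate, Uroc1, urocanase, consumes it, and Ftcd, formiminotransferase cyclodeaminase, hands the carbon of histidine to folate. Sds, serine dehydratase, turns serine and threonine into keto acids, and Sdsl is its close relative. Prodh, proline dehydrogenase, starts proline breakdown in mitochondria.

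Sds (chr5:120476526-120483932) and Sdsl (chr5:120458186-120472810) lie next to each other on opposite strands in GRCm38, and Hpd is on the same chromosome (chr5:123171807-123182727). Hal (chr10:93488768-93519304) and Ftcd (chr10:76575648-76590338) share chromosome 10. The others are at chr8:109990437-109999803 (Tat), chr3:81957090-81976202 (Tdo2), chr6:90333284-90364551 (Uroc1), chr16:18060357-18090203 (Prodh) and chr17:83831156-83847963 (Haao). These spans cover whole genes, introns and untranslated exons included, and the counts are sums over each gene.

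The results below turn on Hal, Ftcd, Hpd and Prodh, so their promoters are shown: the 250 bases before the start that RefSeq gives each gene in GRCm38.p6, read 5′ to 3′ on the strand of the gene. Capitals mark matches to the motifs searched. The windows are chr10:93488518-93488767 (plus strand) for Hal, chr10:76575398-76575647 (plus) for Ftcd, chr5:123182724-123182973 (minus) for Hpd and chr16:18089191-18089440 (minus) for Prodh.
Hal: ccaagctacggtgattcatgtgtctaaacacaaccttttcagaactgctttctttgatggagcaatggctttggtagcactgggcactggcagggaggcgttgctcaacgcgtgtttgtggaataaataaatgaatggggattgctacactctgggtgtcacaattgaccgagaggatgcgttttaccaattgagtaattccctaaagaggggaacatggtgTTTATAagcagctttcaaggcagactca
Ftcd: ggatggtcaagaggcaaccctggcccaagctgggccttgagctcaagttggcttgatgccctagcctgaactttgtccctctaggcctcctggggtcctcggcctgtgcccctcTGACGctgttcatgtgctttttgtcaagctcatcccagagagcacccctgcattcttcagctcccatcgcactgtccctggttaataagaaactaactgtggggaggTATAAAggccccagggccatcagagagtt
Hpd: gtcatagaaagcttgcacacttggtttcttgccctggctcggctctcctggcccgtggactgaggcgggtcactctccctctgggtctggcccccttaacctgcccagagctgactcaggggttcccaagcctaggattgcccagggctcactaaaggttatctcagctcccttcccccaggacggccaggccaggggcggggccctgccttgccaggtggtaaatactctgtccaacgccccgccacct
Prodh: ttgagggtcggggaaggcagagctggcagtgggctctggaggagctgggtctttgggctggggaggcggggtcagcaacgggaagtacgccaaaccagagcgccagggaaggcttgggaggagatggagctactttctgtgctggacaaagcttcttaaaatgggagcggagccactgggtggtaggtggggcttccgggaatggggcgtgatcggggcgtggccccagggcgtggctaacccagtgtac
Both histidine enzymes carry a TATA box close to the start, which reads TTTATA at -28 to -23 in Hal (TATAAA on the other strand) and TATAAA at -29 to -24 in Ftcd. In Ftcd a TGACG lies at -136 to -132. No motif searched was found in the Hpd or Prodh window.

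5 motifs were searched on both strands in the 32851 promoter windows of that table, which held 8 of the 10 enzymes (not Sds or Sdsl). TATAAA was present in 3 of the 8 (Tdo2, at -229 to -224, besides Ftcd and Hal) and in 12.4% of all promoters. TGACG, the core of the cAMP response element, was present in Ftcd alone of the 8 and in 17.8% of all promoters. TGTTCT, the core of the glucocorticoid response element, was present in Haao alone of the 8 and in 16.1% of all. TGATGNAA, the core of the amino acid response element, and TGTTTAC, a forkhead site, were in none of the 8 and in 3.45% and 3.17% of all promoters. A match in these windows is a description of letters only, and none of the motifs overlapped another in the 8 windows.

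Per kilobase of exon, Hpd was the most abundant of the 10 at 1215 ± 365 CPM per kilobase and Sdsl the least at 4.14 ± 2.96 (SD over 46 libraries). Tat (453 ± 251) and Tdo2 (318 ± 112 CPM per kilobase) followed Hpd, with wide spread between livers. Uroc1 (145 ± 28.8), Ftcd (99.1 ± 21.0) and Hal (74.6 ± 30.5 CPM per kilobase) came next. The last were Sds (41.8 ± 15.1), Haao (41.3 ± 8.99) and Prodh (19.0 ± 7.09 CPM per kilobase). Neighbours in this order overlapped within 1 SD of each mean, except Hpd above Tat, Tdo2 above Uroc1, Haao above Prodh and Prodh above Sdsl. All values that follow are CPM, not per length, and compare libraries only within a gene.

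**Figure D1:**
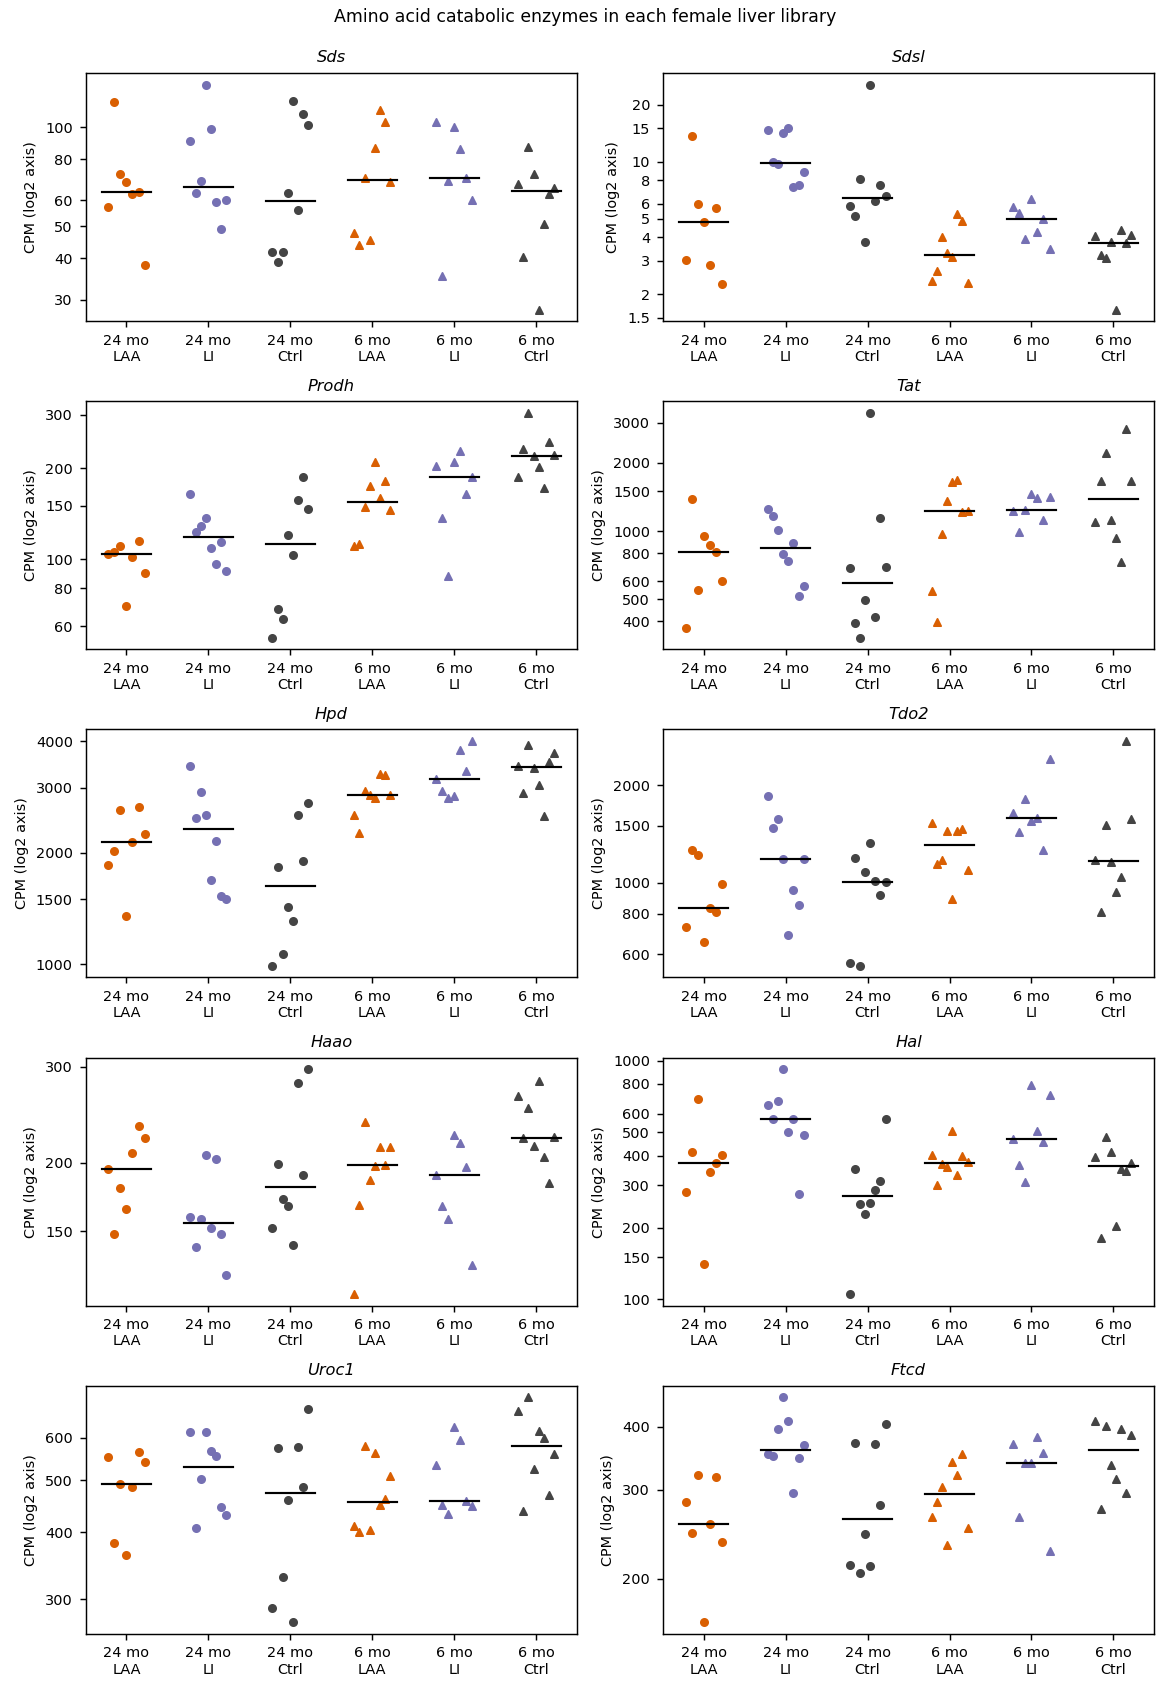
CPM of each enzyme in each of the 46 female libraries on a log2 axis, a panel per gene, with groups from left to right as 24-month Low Amino Acid, Low Isoleucine and Control, then the same diets at 6 months; the black bar is the group median. The lowest Hpd (989 CPM) and Prodh (54.9 CPM) values are in 24-month controls, and the highest group median of Hal (567 CPM) and of Sdsl (9.90 CPM) is on Low Isoleucine at 24 months.

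At 24 months, Hal was the only enzyme of the 10 that passed in edgeR for Low Isoleucine against Control. It reached 276, 567 and 923 CPM (lowest, median and highest of 8) in Low Isoleucine livers, against 105, 270.0 and 568.2 CPM in the 8 control livers. The groups overlapped, but 3 Low Isoleucine livers were above every control and 4 controls were below every Low Isoleucine liver. The fold was 1.97, a log2 fold change of 0.98 (SE 0.252, 95% interval 0.49 to 1.47), and the difference passed edgeR's quasi-likelihood test with Benjamini-Hochberg adjustment over all 12617 genes (adjusted p = 0.0136). Of the 10 enzymes 1 was called higher and 0 lower, beside 6.48% of all genes tested that were called in either direction, 2.69% higher and 3.79% lower. Calls here mean an adjusted p under 0.05.

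The other histidine enzymes stayed short of the threshold. Ftcd had 296, 360.4 and 458 CPM in Low Isoleucine livers, against 206, 262.5 and 406 CPM in controls. 5 controls lay below every Low Isoleucine liver, and its log2 fold change was 0.37 (edgeR adjusted p = 0.0940). Uroc1 differed by 0.17 (interval -0.11 to 0.46, edgeR adjusted p = 0.515).

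Of the tyrosine enzymes Hpd stood at 1504, 2314 and 3422 CPM on Low Isoleucine, against 989, 1625 and 2721 CPM in controls, a log2 fold change of 0.40 (edgeR adjusted p = 0.147). Tat differed by -0.11 with an interval from -0.79 to 0.57, and its sign rested on control replicate 5, which held 3332 CPM. Without that liver Tat was at 0.54 (edgeR adjusted p = 0.237). In the kynurenine route Haao was at -0.31 (edgeR adjusted p = 0.189) and Tdo2 at 0.35 (0.315). Sds (0.12), Sdsl (0.35) and Prodh (0.10) did not pass either. The median log2 fold change of the 10 was 0.26, against -0.02 over all genes tested.

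Acute phase genes moved with the same contrast. Of 18 tested, 12 fell and 0 rose on Low Isoleucine, their sum ranging from 29990.4 to 40831 CPM in Low Isoleucine livers against 25469 to 204879 CPM in controls. 3 of 10 neutrophil markers fell too, with sums of 3.51 to 159 CPM on Low Isoleucine and 9.13 to 675 CPM in controls. No marker measured was at 0 in all 46 libraries. Without the 3 livers highest in acute phase genes (controls 1 and 5, Low Amino Acid 4), Hal differed by 0.80 (edgeR adjusted p = 0.0314). Without the 6 livers highest in acute phase or neutrophil genes it differed by 0.74 and no longer passed (0.0767), while Haao did (-0.49, 0.0480). The values next in line were smaller without these livers. Ftcd was at 0.25 without the 3 (edgeR adjusted p = 0.263) and 0.16 without the 6 (0.545), and Hpd was at 0.25 (0.387) and 0.23 (0.482). Uroc1 was at -0.0071 without the 3 and -0.062 without the 6, and Tat at 0.57 without either set. With the spread estimated from these groups alone, Hal kept its value of 0.98 at an adjusted p of 0.101.

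Single controls moved the neighbours of the threshold. Ftcd passed without control replicate 2 (0.43, edgeR adjusted p = 0.04997) or control replicate 8 (0.46, 0.0381), and Sdsl passed without control replicate 5 (0.81, 0.0395). Hal passed with any 1 of the 46 libraries left out, at adjusted p from 0.0031 to 0.0393.

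Around these enzymes, 51 partner enzymes of the same and neighbouring routes were tested in 7 lists. On Low Isoleucine at 24 months 1 was higher and 4 were lower than in controls, beside 2.69% of all genes tested called higher and 3.79% lower. Cth, which makes cysteine from cystathionine, had 212, 401 and 837 CPM in Low Isoleucine livers, against 136, 219 and 393 CPM in controls (log2 fold change 0.86, edgeR adjusted p = 0.0413). Sqor, the sulphide oxidase of mitochondria, fell by 0.57 (0.0148). Gcsh, a subunit of the glycine cleavage system, fell by 0.55 (0.0400), Hao1, a glycolate oxidase, fell by 0.52 (0.0374), and Qprt, which turns quinolinate towards NAD, fell by 0.37 (0.0161). None of the 4 listed histidine partners was called. Amdhd1, which acts between Uroc1 and Ftcd, was at 0.30 (0.423) and Hdc, the histamine-forming decarboxylase, at 0.39 (0.400). None of 16 hormone and transcription regulators of such enzymes was called.

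Low Amino Acid left all 10 enzymes uncalled at 24 months in edgeR's quasi-likelihood test, and also in DESeq2 and in voom with quality weights, where each called 0. 0.745% of all genes tested were called in edgeR. Beside 16.9% of all genes tested, 1 enzyme had an unadjusted p under 0.05, namely Sdsl. It had 2.26, 4.81 and 13.7 CPM in the 7 Low Amino Acid livers, against 3.76, 6.42 and 25.6 CPM in the 8 controls, with 3 Low Amino Acid livers below every control. Its log2 fold change was -0.65 (SE 0.311, edgeR adjusted p = 0.282).

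The value for Sdsl rested on few livers. It was -0.18 without control replicate 5, which held the 25.6 CPM, and -1.07 without Low Amino Acid replicate 2, which held the 13.7 CPM. The authors' deposited table gives -0.99 for Sdsl with an adjusted p of 0.0480, where 5.53% of its genes pass. The fold changes in the authors' deposited table match the counts best when Low Amino Acid replicates 2 and 4 and Low Isoleucine replicates 2 and 5 are absent, and without those 4 livers edgeR gave -1.12 (adjusted p = 0.0230). The other 9 enzymes lay between -0.24 and 0.36, the highest being Hal (interval -0.15 to 0.86) and the lowest Tat. Tat was at 0.41 and still uncalled in edgeR without control replicate 5, the liver of 3332 CPM. None of the 51 partners was called.

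Set directly against Low Amino Acid at 24 months, Low Isoleucine gave 0 calls among the 10 in edgeR, beside 1.25% of all genes. DESeq2 gave 1 call and voom 3, for which no share of all genes is given. 3 enzymes had an unadjusted p under 0.05, beside 15.8% of all genes tested. Ftcd had 296, 360.4 and 458 CPM in Low Isoleucine livers, against 164, 257 and 321 CPM in Low Amino Acid livers. 7 of the 8 Low Isoleucine livers were above all 7 on Low Amino Acid, and the log2 fold change was 0.51 (SE 0.144, 95% interval 0.23 to 0.80, edgeR adjusted p = 0.0572).

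Sdsl had 7.40, 9.90 and 15.0 CPM in Low Isoleucine livers, against 2.26, 4.81 and 13.7 CPM in Low Amino Acid livers. 6 of the 7 Low Amino Acid livers lay below every Low Isoleucine liver. Its log2 fold change was 0.99 (SE 0.313, edgeR adjusted p = 0.0973). Hal differed by 0.63 (0.212). DESeq2 called Ftcd (0.51, adjusted p = 0.0256), and voom called Ftcd, Hal and Sdsl. Leaving out 1 of 6 livers brought Ftcd past the threshold in edgeR (adjusted p from 0.0433 to 0.0499), namely 24-month control 5, 6 or 8, 24-month Low Amino Acid 3, 24-month Low Isoleucine 6 or 6-month Low Isoleucine 8. Sdsl passed without 24-month control 5 (0.99, 0.0315) or Low Amino Acid 2 (1.41, 0.0091). 2 of 18 acute phase genes were lower on Low Isoleucine here. Their sum was 29990.4 to 40831 CPM on Low Isoleucine and 28956 to 121111 CPM on Low Amino Acid. Without the 3 livers highest in acute phase genes Ftcd was at 0.43 (edgeR adjusted p = 0.0822) and Sdsl at 0.96 (0.0616), and without the 6 highest in acute phase or neutrophil genes Ftcd was at 0.37 (0.153) and Sdsl passed at 1.38 (0.0015).

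**Figure D2:**
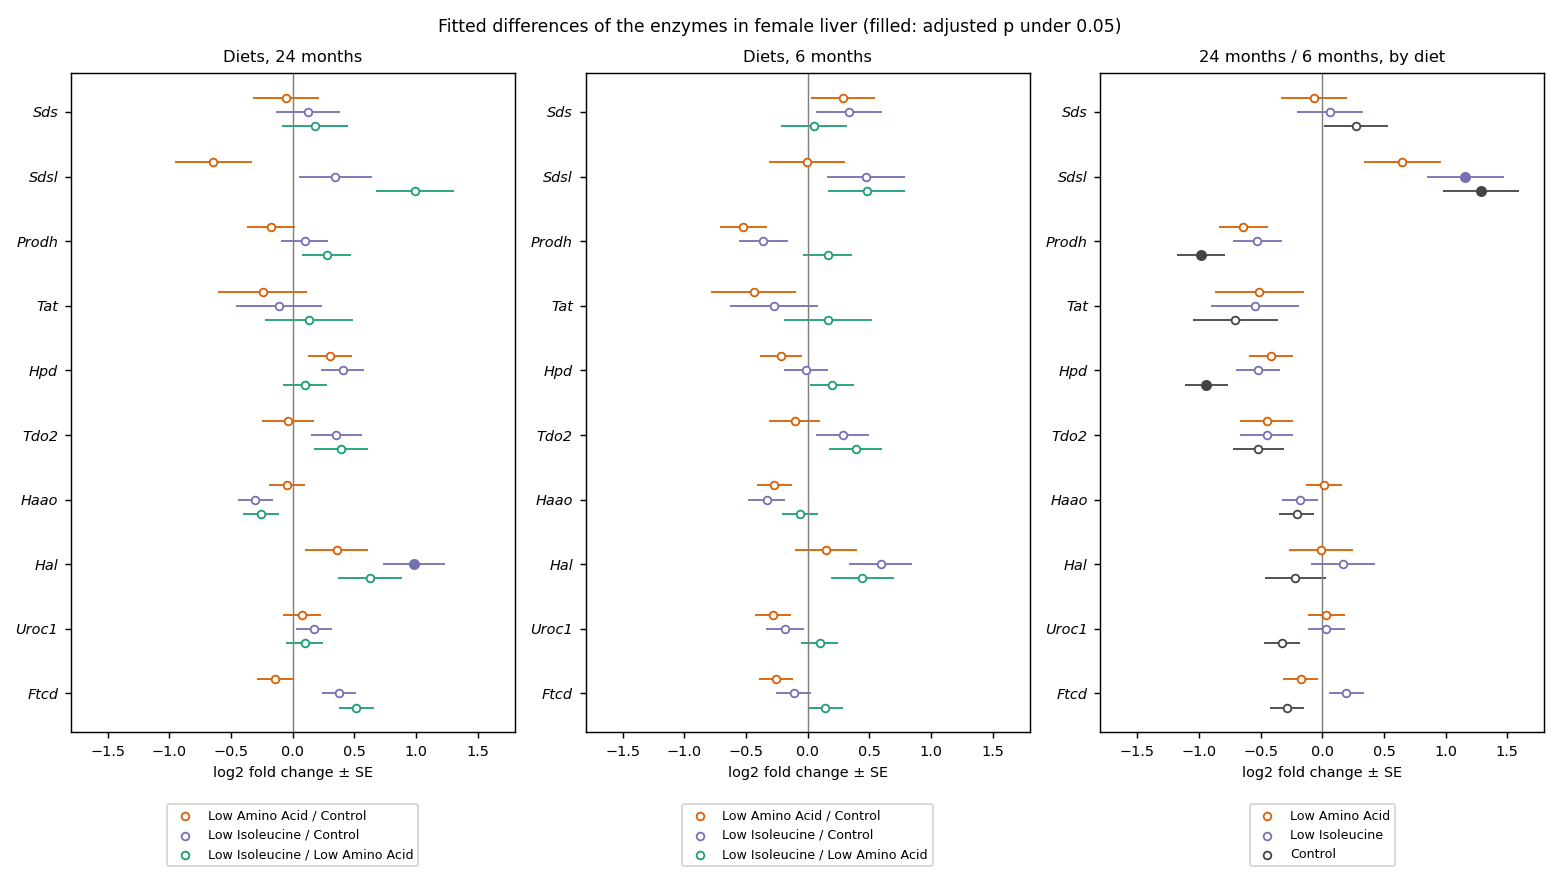
Fitted log2 fold changes of the 10 enzymes with standard errors, in panels for the diets at 24 months, the diets at 6 months and 24 against 6 months on each diet; filled points have an edgeR adjusted p under 0.05. Filled points are Hal on Low Isoleucine against Control at 24 months (0.98), Hpd, Prodh and Sdsl between ages on Control, and Sdsl between ages on Low Isoleucine.

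At 6 months none of the 10 enzymes passed on either restricted diet. Low Amino Acid against Control gave 0 calls in edgeR, DESeq2 and voom, and 0.0% of all genes were called in edgeR. At an unadjusted p under 0.05 there was 1 enzyme, beside 8.11% of all genes tested. That enzyme was Prodh, which had 111, 154 and 209.7 CPM in Low Amino Acid livers, against 171, 219.8 and 305 CPM in controls. 5 Low Amino Acid livers were below every control and 5 controls above every Low Amino Acid liver, for a log2 fold change of -0.52 (SE 0.191, 95% interval -0.90 to -0.15, edgeR adjusted p = 0.470). 8 of the 10 values were negative, with a median of -0.24 against 0.00 over all genes. Sds (0.29) and Hal (0.15) were the positive ones, and their intervals included 0.

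Low Isoleucine against Control at 6 months also gave 0 calls among the 10 in edgeR, DESeq2 and voom, beside 0.0238% of all genes in edgeR. 2 enzymes had an unadjusted p under 0.05, beside 10.1% of all genes tested. Hal had 310.4, 469.9 and 792 CPM in Low Isoleucine livers, against 181, 361 and 479.7 CPM in controls, with 3 of 7 Low Isoleucine livers above every control (log2 fold change 0.59, SE 0.258, edgeR adjusted p = 0.416). Haao had 129.8, 190.1 and 225 CPM in Low Isoleucine livers, against 183.5, 222 and 282 CPM in controls (-0.33, edgeR adjusted p = 0.422).

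Between the restricted diets at 6 months 0 enzymes passed in edgeR, DESeq2 and voom, and 0.0159% of all genes were called in edgeR. 0 enzymes had an unadjusted p under 0.05, beside 9.99% of all genes tested. None of the 51 partners was called in any of the diet comparisons at 6 months. The nearest, Ido2, an indoleamine dioxygenase of the kynurenine route, was at -1.11 on Low Isoleucine (edgeR adjusted p = 0.110).

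Whether a diet acted differently at the later age was tested as the effect at 24 months minus that at 6 months. None of the 10 passed for either diet in edgeR, DESeq2 or voom, and 0.0% of all genes were called in edgeR. 1 enzyme each had an unadjusted p under 0.05, beside 10.3% of all genes for Low Amino Acid and 8.50% for Low Isoleucine. Hal, called at 24 months and not at 6, differed between the ages by 0.39 with an interval from -0.31 to 1.09. The enzymes with an unadjusted p under 0.05 were Ftcd for Low Isoleucine (0.48, SE 0.199, edgeR adjusted p = 0.467) and Hpd for Low Amino Acid (0.52, SE 0.247, 0.482).

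Between the ages on the Control diet, Hpd and Prodh fell and Sdsl rose. Hpd had 989, 1625 and 2721 CPM in 24-month controls, against 2521, 3409 and 3900.1 CPM in 6-month controls. 6 of 8 livers at 24 months were below all 8 at 6 months, and the log2 fold change was -0.94 (SE 0.173, 95% interval -1.28 to -0.60, edgeR adjusted p = 2.49e-04).

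Prodh had 54.9, 112 and 187 CPM in 24-month controls, against 171, 219.8 and 305 CPM in 6-month controls. 7 of 8 livers at 24 months were below all at 6 months (log2 fold change -0.98, SE 0.192, 95% interval -1.36 to -0.61, edgeR adjusted p = 4.06e-04). Sdsl went the other way, with 3.76, 6.42 and 25.6 CPM in 24-month controls against 1.65, 3.75 and 4.36 CPM in 6-month controls. 7 of 8 livers at 24 months were above all at 6 months (log2 fold change 1.29, SE 0.307, edgeR adjusted p = 0.0020). Its size rested partly on control replicate 5, without which it was 0.81 and still passed (0.0180).

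In all, 1 enzyme rose and 2 fell of 10 in edgeR. There 28.0% of all genes tested were called in this comparison, 16.7% higher and 11.4% lower. 7 enzymes had an unadjusted p under 0.05, beside 39.3% of all genes tested. DESeq2 and voom called 4 each, DESeq2 adding Tdo2 and voom adding Tat. The median of the 10 was -0.31, against 0.03 over all genes.

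The other 7 enzymes did not pass. Tat had 338, 592 and 3332 CPM in 24-month controls, against 729, 1388 and 2834 CPM in 6-month controls (log2 fold change -0.71, edgeR adjusted p = 0.124). The 3332 CPM came from replicate 5 alone, the next highest being 1140.0 CPM. Without that liver Tat differed by -1.37 and passed (edgeR adjusted p = 9.87e-04), as it did without the 3 livers highest in acute phase genes (-1.38, 0.0026) and without the 6 highest in acute phase or neutrophil genes (-1.36, 0.0038), both of which leave out replicate 5. 6 of the 8 livers at 24 months were below all at 6 months.

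Tdo2 was at -0.52 (edgeR adjusted p = 0.0554) and passed when any 1 of 7 livers was left out, which were 24-month controls 2 and 5, 24-month Low Isoleucine 1 and 5 and 6-month controls 2, 5 and 6 (-0.52 to -0.60). Uroc1 was at -0.33 (0.0884) and passed without 24-month control 6 (-0.38, 0.0473) or 8 (-0.43, 0.0221). Ftcd was at -0.29 (0.114) and passed without 24-month control 8 (-0.38, 0.0372). Without the 3 livers highest in acute phase genes both were smaller, Uroc1 at -0.14 (edgeR adjusted p = 0.476) and Ftcd at -0.16 (0.416), and without the 6 highest in acute phase or neutrophil genes Uroc1 was at -0.12 (0.595) and Ftcd at -0.10 (0.638). Hal (-0.22), Haao (-0.21) and Sds (0.27) had intervals that included 0.

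The 24-month controls differed among themselves in inflammation genes as well as in these enzymes. 15 of 18 acute phase genes, 10 of 10 neutrophil markers, 9 of 12 macrophage markers and 7 of 9 lymphocyte markers rose in 24-month controls. Acute phase sums were 25469 to 204879 CPM at 24 months and 20104 to 32059.9 CPM at 6 months. Neutrophil sums were 9.13 to 675 CPM at 24 months and 3.60 to 9.16 CPM at 6 months. Macrophage sums were 352 to 3052 CPM at 24 months and 355 to 866 CPM at 6 months, and lymphocyte sums 9.14 to 198 CPM at 24 months and 4.92 to 11.01 CPM at 6 months. 1 macrophage marker fell. Among zone markers, 7 of 11 pericentral genes fell and 0 rose, and 3 of 11 periportal genes fell and 1 rose.

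The liver with the lowest Hpd (989 CPM), Prodh (54.9 CPM) and Hal (105 CPM), replicate 1, was also among the highest in acute phase genes (mean 11.3 log2 CPM). Replicate 5, equally high in acute phase genes (11.3), held 1313 CPM of Hpd and 104 CPM of Prodh, and the highest Tat and Sdsl. Replicate 8, next to them in acute phase genes (9.98), held the highest Hpd of the group (2721 CPM) and 147 CPM of Prodh. Replicates 3 and 7 came after it (9.74 and 9.59), with 1069 and 1901 CPM of Hpd and 63.3 and 187 CPM of Prodh. Replicate 6, lowest in acute phase genes (7.84), held 2522 CPM of Hpd and 157 CPM of Prodh. Replicate 2, the next lowest (8.09), held 1827 CPM of Hpd but only 68.2 CPM of Prodh, and replicate 4 (8.54) held 1424 CPM of Hpd and 120.2 CPM of Prodh. Hpd and Prodh did not follow the acute phase mean in strict order across these 8 livers. Within all 24-month livers, with group means removed, r with the acute phase mean was -0.53 for Hpd and -0.36 for Prodh. Over all 46 livers r was -0.47 for Hpd (permutation adjusted p = 0.052) and -0.28 for Prodh (0.26). The part of inflammation in these age differences was not tested. Without the 3 livers highest in acute phase genes Hpd differed by -0.78 (edgeR adjusted p = 0.0018), Prodh by -0.84 (0.0030) and Sdsl by 0.84 (0.0287). Without the 6 highest in acute phase or neutrophil genes the values were -0.72 (0.0043), -0.84 (0.0056) and 0.94 (0.0042).

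**Figure D3:**
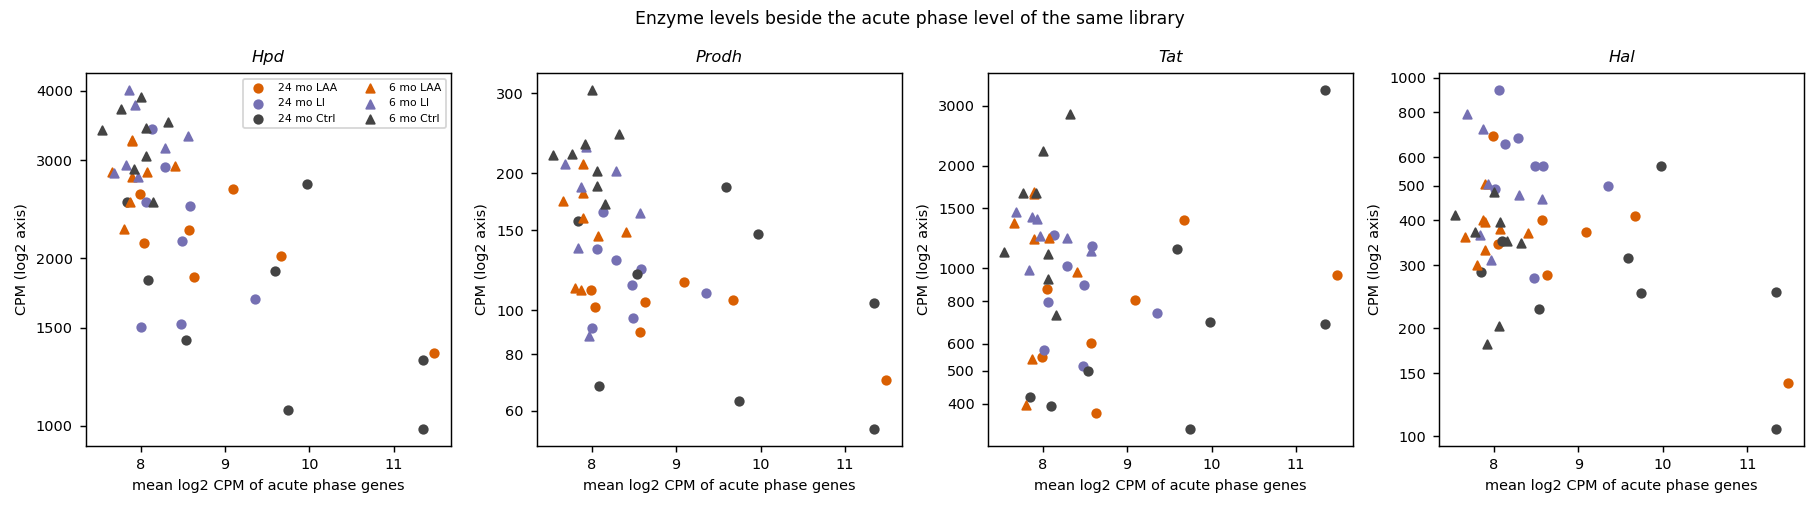
CPM of Hpd, Prodh, Tat and Hal in each female library against its acute phase mean (log2 CPM), coloured by group. The 24-month controls spread widest on the acute phase axis (7.84 to 11.3); controls 1 and 5 at its high end hold 989 and 1313 CPM of Hpd, control 6 at its low end 2522 CPM, and control 8, next below controls 1 and 5 on the axis (9.98), the most of the 24-month controls at 2721 CPM.

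Partner enzymes fell on Control diet with age more often than they rose. Of 51, 20 were lower and 5 higher at 24 months. Among all genes tested 11.4% were called lower and 16.7% higher, and the same shares apply to the lists that follow. In the list around tyrosine breakdown 4 of 6 fell and 0 rose. Among them was Hgd, homogentisate dioxygenase, which acts after Hpd (log2 fold change -0.75, edgeR adjusted p = 0.0026). Like other partners of the age comparisons it is named after its values were seen.

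In the kynurenine list 5 of 9 fell and 1 rose. Afmid, the formamidase after Tdo2, stood at 48.8, 108 and 177 CPM in 24-month controls, against 175, 212 and 248.6 CPM in 6-month controls (-1.04, edgeR adjusted p = 1.7e-04). 5 of 7 lysine enzymes and 2 of 10 in the proline, ornithine and glutamate list fell with 0 rising in either, and Oat, ornithine aminotransferase, was at -1.08 (0.0060). In the serine list 2 of 10 fell and 2 rose, and in the sulphur list 2 of 5 fell and 1 rose. Among 4 histidine partners 1 rose, Aldh1l2, a mitochondrial folate enzyme, and 0 fell. Of the 16 regulators 5 fell and 0 rose, among them Klf15, a factor that in mouse liver raises amino acid breakdown in fasting (-0.65, 0.0037), Ppara (-0.64), Ppargc1a (-0.77) and Foxo1 (-0.45). Of 12 fasting, glucagon and glucocorticoid targets 3 fell and 2 rose, the risers being metallothioneins Mt1 and Mt2, which also respond to inflammation.

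On Low Isoleucine, 1 of the 10 enzymes changed between the ages in edgeR, beside 7.34% of all genes tested that were called, 4.9% higher and 2.44% lower. Sdsl had 7.40, 9.90 and 15.0 CPM at 24 months, against 3.47, 4.96 and 6.38 CPM at 6 months. All 8 livers at 24 months were above all 7 at 6 months, with a log2 fold change of 1.16 (SE 0.316, 95% interval 0.54 to 1.78, edgeR adjusted p = 0.0201). Without the 4 livers absent from the authors' deposited table it was 1.09 at an adjusted p of 0.0661.

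Hpd had 1504, 2314 and 3422 CPM at 24 months on Low Isoleucine, against 2803, 3161 and 4011 CPM at 6 months (-0.52, edgeR adjusted p = 0.0606). Hpd passed when 1 of 5 livers was left out, which were 24-month controls 1, 3 and 8 and 24-month Low Isoleucine 1 and 3. Prodh was at -0.53 (0.0836) and passed without 6-month Low Isoleucine 4 (-0.64, 0.0451). 4 enzymes had an unadjusted p under 0.05, beside 25.2% of all genes tested. DESeq2 called 2 and voom 3, for which no share of all genes is given. 7 of 9 lymphocyte markers rose here (sums 10.3 to 113 CPM at 24 months, 1.73 to 8.20 CPM at 6 months), and 0 of 18 acute phase genes passed. The part of the lymphocyte genes in the Sdsl difference was not tested. Without the 3 livers highest in acute phase genes Sdsl was at 1.16 (edgeR adjusted p = 0.0063) and Hpd passed (-0.52, 0.0329), and without the 6 highest in acute phase or neutrophil genes Sdsl was at 1.08 (0.0034). Of 51 partners 5 fell and 0 rose, beside 2.44% of all genes tested called lower and 4.9% higher. Afmid (-0.72, edgeR adjusted p = 0.0156) was among those that fell.

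On Low Amino Acid, none of the 10 passed between the ages in edgeR, beside 1.61% of all genes. DESeq2 called 0 and voom 1, for which no share of all genes is given. In edgeR 4 enzymes had an unadjusted p under 0.05, beside 13.8% of all genes tested. Prodh had 70.1, 104 and 115 CPM at 24 months, against 111, 154 and 209.7 CPM at 6 months, with 6 of 7 livers at 24 months below all 8 at 6 months (log2 fold change -0.64, SE 0.199, edgeR adjusted p = 0.0925). Hpd was at -0.42 (0.271) and Tdo2 at -0.45 (0.336). Sdsl was at 0.65 and at 0.23 without Low Amino Acid replicate 2. None of the 51 partners was called. 8 of 18 acute phase genes and 6 of 10 neutrophil markers rose with age on this diet. Acute phase sums were 28956 to 121111 CPM at 24 months and 21971 to 27716 CPM at 6 months, and neutrophil sums 6.11 to 452 CPM at 24 months and 5.14 to 12.5 CPM at 6 months. Without the 3 livers highest in acute phase genes Prodh was at -0.57 (edgeR adjusted p = 0.179), Hpd at -0.33 (0.440) and Tdo2 at -0.38 (0.514). Without the 6 highest in acute phase or neutrophil genes they were at -0.57 (0.270), -0.31 (0.567) and -0.47 (0.441).

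The 3 age differences of Prodh were -0.98 (Control), -0.64 (Low Amino Acid) and -0.53 (Low Isoleucine). Its diet-by-age values were 0.34 for Low Amino Acid (interval -0.19 to 0.88) and 0.46 for Low Isoleucine (-0.08 to 0.99), and neither passed.

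How the enzymes varied from liver to liver within groups was measured by correlating log2 CPM after removal of group means, over 46 libraries. 39 of the 45 pairs were positively correlated, and 23 pairs passed at an adjusted p under 0.05 in a permutation test within groups, all 23 of them positive. The same 23 pairs also passed by Spearman's rho, and all 23 were positive within the 23 livers at 24 months and within the 23 at 6 months. All enzymes of a library share its depth and its TMM factor. How often pairs of other genes pass the same test was not computed. The count is therefore not shown to be particular to these enzymes.

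Uroc1 and Haao had r = 0.77 and rho = 0.79 (adjusted p = 0.00011 by permutation; the raw p of 1e-05 is the smallest the permutations can give), with r = 0.84 at 24 months and 0.68 at 6 months. Uroc1 and Ftcd, both of the histidine route, had r = 0.73 and rho = 0.69 (permutation adjusted p = 0.00011; 0.79 at 24 months, 0.61 at 6). Hal had its highest r with Hpd (r = 0.69, rho = 0.68, permutation adjusted p = 0.00011; 0.78 at 24 months, 0.43 at 6), and so did Prodh (0.68, rho 0.66, 0.00018; 0.74 at 24 months, 0.61 at 6).

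Sds went with its neighbour Sdsl (r = 0.65, rho = 0.64, permutation adjusted p = 0.00011; 0.71 at 24 months, 0.61 at 6) and with Tat (0.60, rho 0.57, 0.0003; 0.65 at 24 months, 0.54 at 6). With the 2 livers farthest from the median of the first gene left out, r of these pairs was 0.75, 0.70, 0.60, 0.66, 0.67 and 0.60 in the order given. Tat and its fellow tyrosine enzyme Hpd did not pass over all livers (r = 0.23, rho = 0.32, permutation adjusted p = 0.33 for r and 0.07 for rho), although r was 0.65 within 6-month livers and 0.09 within 24-month livers. Some pairs with Hpd rested on the older livers: Ftcd with Hpd had r = 0.71 at 24 months and 0.09 at 6 months.

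**Figure D4:**
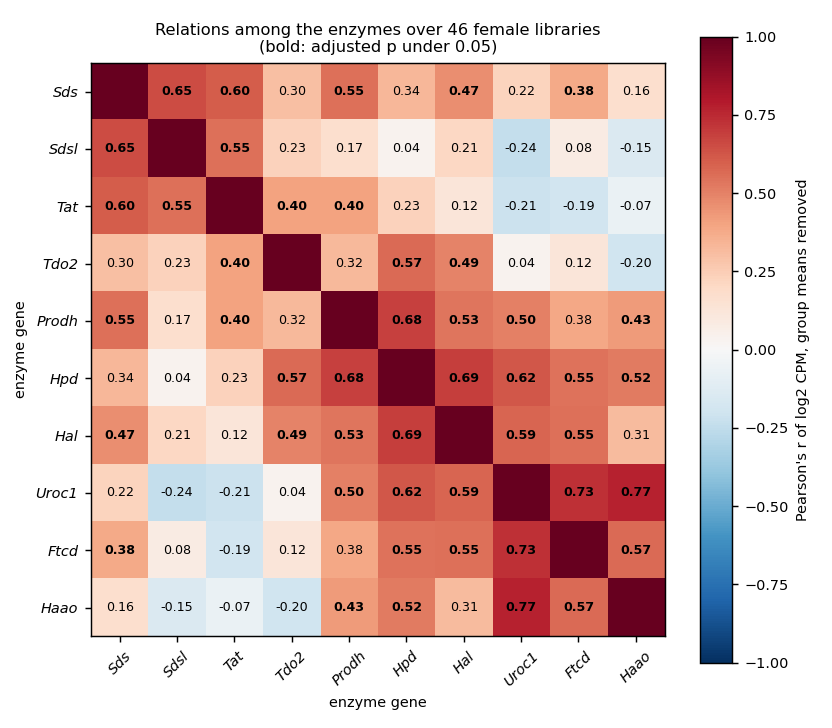
Pearson r between each pair of the 10 enzymes across 46 female libraries after removal of group means, with values printed in each cell and bold where the permutation adjusted p is under 0.05. The upper values are Uroc1 with Haao (0.77) and Uroc1 with Ftcd (0.73), and no pair with a negative r is bold.

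Against 4 marker lists, 40 pairs in all, the mean of 11 periportal markers was correlated with Hpd (r = 0.76, rho = 0.75, permutation adjusted p = 0.00013), Uroc1 (0.73, rho 0.64, 0.00013), Hal (0.69, rho 0.65, 0.00013) and Ftcd (0.62, rho 0.57, 0.0004). For Hpd the value was 0.77 at 24 months and 0.72 at 6 months. The periportal mean also passed with Haao (r = 0.51, permutation adjusted p = 0.022), Prodh (0.48, 0.039) and Tdo2 (0.41, 0.041). The mean of 11 pericentral markers passed with Uroc1 (r = 0.55, permutation adjusted p = 0.022), Prodh (0.53, 0.025), Hpd (0.51, 0.025) and Haao (0.46, 0.032). Sdsl was negatively correlated with the pericentral mean (-0.43, 0.043). By rho the pericentral pairs of Prodh (permutation adjusted p = 0.088) and Hpd (0.051) did not pass. The acute phase mean was negatively correlated with Uroc1 (r = -0.50, permutation adjusted p = 0.041, but rho = -0.31 at 0.16), with r = -0.63 at 24 months and 0.15 at 6 months, so it rested on the older livers. Enzymes and markers of a library share its depth and TMM factor. How often other genes pass with these means was not computed. The relations are therefore not shown to be particular to these enzymes or to a zone.

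In males, for which only the authors' deposited table was used here, Ftcd was the only enzyme of the 10 that passed in any comparison. The authors' deposited table of males gives Ftcd a log2 fold change of -0.70 for 6-month males on Low Amino Acid (adjusted p = 2.70e-04) and -0.70 for those on Low Isoleucine (8.63e-04), where 16.3% and 21.1% of its genes pass in either direction. The 2 diets share their control livers. It also gives -0.48 for 24- against 6-month control males (adjusted p = 0.0098, in the authors' deposited table), where 20.0% of genes pass. These values of Ftcd are all taken against 6-month control males. No other enzyme of the 10 passed in any comparison of the authors' deposited table of males. With 1 of 10 passing, the enzymes passed no more often than genes at large in the comparisons where Ftcd did. Sdsl came nearest in the 6-month males on Low Amino Acid, at -1.47 in the authors' deposited table (adjusted p = 0.0763).

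In males killed at 24 months after Low Amino Acid, all 10 enzymes have a negative value in the authors' deposited table of males, from -1.04 (Tat) to -0.21 (Haao) with a median of -0.40, and none passes (smallest adjusted p = 0.144, Uroc1). Of all genes in the authors' deposited table, 0.0563% pass in that comparison. On Low Isoleucine at 24 months 9 of 10 are negative in the authors' deposited table of males, where 0.0676% of genes pass, and Hal is the positive one (0.24). Both comparisons are against 24-month control males. The share of all genes with a negative value was not computed for either, so the signs are not shown to be particular to these enzymes.

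The age effect on Control diet differed between the sexes in 4 enzymes, by a test of the female minus the male log2 fold change built from the authors' deposited tables of both sexes. It covered 17023 genes, of which 9.15% passed. Prodh was at -1.07 in females and 0.18 in males of the authors' deposited tables, a difference of -1.25 (SE 0.287, adjusted p = 0.0030). Hpd was at -0.999 in females and -0.06 in males, a difference of -0.93 (SE 0.222, 0.0042) in the authors' deposited tables. Tdo2 was at -0.46 in females and 0.39 in males, a difference of -0.84 (SE 0.246, 0.0199), and Uroc1 at -0.37 in females and 0.22 in males, a difference of -0.60 (SE 0.184, 0.0283), both from the authors' deposited tables. In each case the female value was the lower one. The test was not rerun without the livers highest in inflammation genes, since the authors' deposited tables give no values per library. In the fit to female counts without the 6 highest in acute phase or neutrophil genes, the age differences were -0.84 for Prodh, -0.72 for Hpd, -0.55 for Tdo2 and -0.12 for Uroc1.

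None of the 10 differed between the sexes in a diet effect, where 9.22%, 6.89%, 0.846% and 0.0117% of genes passed in the authors' deposited tables, in the order 6-month Low Amino Acid, 6-month Low Isoleucine, 24-month Low Amino Acid, 24-month Low Isoleucine. The nearest were Uroc1 on Low Amino Acid at 24 months (0.68, adjusted p = 0.0626), Ftcd on Low Isoleucine at 6 months (0.58, 0.0748) and Hal on Low Amino Acid at 24 months (1.03, 0.0835), from the authors' deposited tables. The sources used here do not name the male libraries behind the authors' deposited table.

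**Figure D5:**
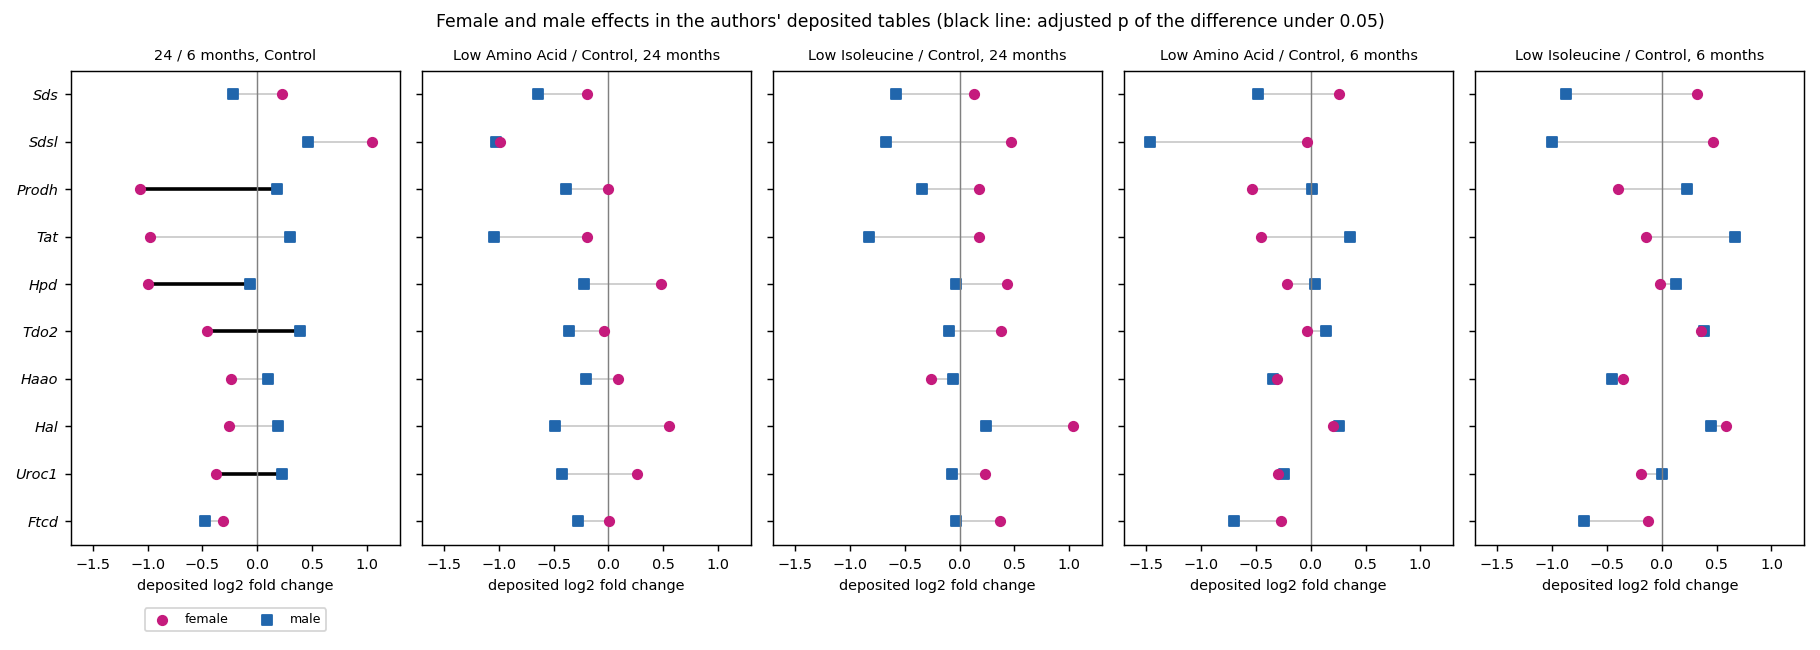
Log2 fold changes of the 10 enzymes in females (circles) and males (squares) from the authors' deposited tables, a panel per comparison, with a black line where the female minus male difference has an adjusted p under 0.05. Black lines appear for age on the Control diet, at Prodh, Hpd, Tdo2 and Uroc1, and in none of the diet panels.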

How the data were processed

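Counts per gene were the authors' deposited estimated counts (expected counts, of which 82.4% of cells are whole numbers), on GRCm38.p5 per the submitters' processing notes, which name edgeR, limma and R 3.4.3 with no roles. The sources used here name no aligner. Per the labels' protocols, RNA of frozen liver was made into stranded libraries with polyA selection, and lanes were merged. Of 51912 lines of the gene table, 17275 were filled under all columns. Only those lines and the 47 female columns were used, because the 45 male columns are misaligned (Alb, the albumin gene, had a median count of 1905880 in female and 75 in male columns). Female fold changes from counts correlated with the authors' deposited log2 fold changes at r = 0.91 to 0.95 over 11269 genes.

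Counts were rounded, filtered (filterByExpr), scaled by TMM and tested with edgeR 4.0.16 (quasi-likelihood, a mean per group, 46 libraries, R 4.3.3), with Benjamini-Hochberg adjustment over 12617 genes. DESeq2 1.42.0 and limma 3.58.1 (voom, also with the shared title number as a random block) were alternatives. CPM levels came from the same scaling, with a prior count of 2 on the log2 scale. Gene positions and exon lengths came from GENCODE M21 (17251 identifiers matched). Gene symbols came from the authors' deposited comparison tables, and from a gene name list for identifiers absent there. Log2 fold changes, p-values and adjusted p-values for males, and for females beside them, were copied from the authors' deposited tables (17192 genes in females, 17757 in males). The deposited F statistic (a score) was used only to recover the degrees of freedom of each table, 39.6 in females and 36.3 in males, from which standard errors were derived (scipy 1.17.1, Python 3.11.15, numpy 2.4.6, pandas 2.3.3). Neither model nor libraries of those tables are stated in the sources used here. Permutation tests drew 100000 permutations within groups.

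The female-minus-male test was added after the data were seen. The enzymes and the gene lists were chosen with earlier results of these data known. All 10 enzymes are named whatever their values. Results of 1 listed partner are not reported here. Of the other enzyme and regulator lists, the rule takes genes called in a diet comparison, up to 5 of largest change per list, or the 2 of smallest p where none is called, of which only some are printed. In a simulation, counts of all 46 libraries were drawn with 1 mean level and 1 spread per gene shared by all groups. Log2 changes of 0.5, 1 and 2 placed in 24-month Low Isoleucine libraries were called against Control in 38.8%, 68.7% and 95.5% of altered genes. Of 12557 genes 5 were called wrongly. The simulation gave no group a spread of its own and held no livers high in inflammation genes. These shares therefore need not hold for the real 24-month livers.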

Additional observations from a re-analysis of the deposited data

Results flagged for a closer look

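In 60 groups of libraries examined for a single value far from the rest, 2 stood out, where chance alone gives about 1 in 20. Sdsl was at 25.61 CPM in replicate 5 of the 24-month controls, with the next highest at 8.15 CPM. Sdsl was at 1.651 CPM in replicate 5 of the 6-month controls, with the next lowest at 3.11 CPM.

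The age effect on the Control diet differed between females and males in 4 enzymes, by the test of the difference built from the authors' deposited tables. The female minus male value was -1.248 for Prodh (adjusted p = 0.0030), -0.9348 for Hpd (0.0042), -0.8428 for Tdo2 (0.0199) and -0.5974 for Uroc1 (0.0283).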

How the results depend on the processing

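10 alternatives and 46 fits without 1 library each were compared. 4 of the alternatives were chosen after seeing the data: without the 3 livers highest in acute phase genes, without the 6 highest in acute phase or neutrophil genes, without the 4 absent from the authors' deposited female table, and voom with the number that titles share as a random block (estimated correlation 0.035). No enzyme that passed changed its sign. Of 110 log2 fold changes (10 enzymes in 11 comparisons) 33 changed sign under at least 1 of these 56 fits, in 130 of 6160 values. None of the 33 passed in edgeR as reported, and no value of opposite sign passed in its own fit. The largest value of opposite sign was 0.57, for Tat at 24 months, which turned positive against Control on both diets wherever control replicate 5 was left out, and in voom.

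Counts of called enzymes that moved were as follows. With Low Amino Acid set against Control at 24 months, 1 was called without the 4 livers (0 otherwise). For Low Isoleucine against Control at 24 months 0 were called with the compared groups alone, and 1 to 2 with 1 library left out. For Low Isoleucine against Low Amino Acid at 24 months DESeq2 called 1, voom 3, voom with the block 2, and 1 each without the 6 or the 4 livers, and 0 to 2 with 1 library left out. For 24 against 6 months on Low Amino Acid voom with and without the block and the compared groups alone called 1 each. For 24 against 6 months on Low Isoleucine DESeq2 called 2, voom with and without the block 3, the fit with the left-out library 2, without the 3 livers 2 and without the 4 livers 0, and 1 to 2 with 1 library left out. For 24 against 6 months on Control 4 were called, against 3 in edgeR, in DESeq2 and without the 4 livers (Tdo2 added) and in voom with and without the block, without the 3 and without the 6 livers (Tat added), and 3 to 5 with 1 library left out. The cause was not tested.

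Log2 fold changes that changed sign follow, each with its edgeR value in brackets. For Low Amino Acid against Control, 6 months, Tdo2 (-0.11) was 0.035 in voom, 0.036 in voom with the block and -0.19 to 0.12 without 1 library, and Sdsl (-0.0058) was -0.11 to 0.063 without 1 library. For Low Isoleucine against Control, 6 months, Ftcd (-0.11) was 0.010 with the left-out library, and Hpd (-0.017) was -0.073 to 0.021 without 1 library. For Low Isoleucine against Low Amino Acid, 6 months, Haao (-0.062) was -0.14 to 0.0069 without 1 library, and Sds (0.050) was -0.045 to 0.17 without 1 library. For Low Amino Acid against Control, 24 months, Haao (-0.049) was 0.021 in voom, 0.055 without the 4, 0.022 in voom with the block and -0.11 to 0.055 without 1 library, Tat (-0.24) was 0.29 in voom, 0.40 without the 3, 0.11 without the 6, 0.28 in voom with the block and -0.44 to 0.41 without 1 library, Prodh (-0.18) was 0.015 in voom and 0.018 in voom with the block, Tdo2 (-0.039) was 0.023 without the 3 and -0.13 to 0.045 without 1 library, Sds (-0.058) was 0.0082 in voom, 0.0051 without the 3, 0.0079 in voom with the block and -0.25 to 0.090 without 1 library, and Uroc1 (0.075) was -0.045 without the 3, -0.0054 without the 6 and -0.0051 to 0.18 without 1 library. For Low Isoleucine against Control, 24 months, Tat (-0.11) was 0.49 in voom, 0.57 without the 3, 0.57 without the 6, 0.48 in voom with the block and -0.24 to 0.54 without 1 library, Prodh (0.10) was -0.042 without the 3, -0.031 without the 6 and -0.0039 to 0.24 without 1 library, Sds (0.12) was -0.034 to 0.27 without 1 library, and Uroc1 (0.17) was -0.0071 without the 3 and -0.062 without the 6. For Low Isoleucine against Low Amino Acid, 24 months, Hpd (0.10) was -0.0076 to 0.17 without 1 library, and Uroc1 (0.10) was -0.056 without the 6 and -0.0024 without the 4. For 24 against 6 months, Low Amino Acid, Haao (0.013) was -0.067 to 0.068 without 1 library, Hal (-0.012) was 0.13 without the 3, 0.13 without the 6, 0.13 without the 4 and -0.23 to 0.13 without 1 library, Sds (-0.071) was -0.26 to 0.042 without 1 library, and Uroc1 (0.033) was -0.0088 to 0.091 without 1 library. For 24 against 6 months, Low Isoleucine, Sds (0.061) was -0.10 to 0.15 without 1 library, and Uroc1 (0.031) was -0.0085 to 0.090 without 1 library. For 24 against 6 months, Control, Hal (-0.22) was 0.049 without the 6. For the Low Amino Acid effect at 24 minus 6 months, Tat (0.19) was -0.12 without the 4 and -0.0017 to 0.85 without 1 library, Hal (0.21) was -0.0067 to 0.41 without 1 library, and Tdo2 (0.067) was -0.082 in voom, -0.082 in voom with the block and -0.16 to 0.15 without 1 library. For the Low Isoleucine effect at 24 minus 6 months, Haao (0.028) was -0.027 with the left-out library, -0.10 without the 3, -0.16 without the 6 and -0.041 to 0.13 without 1 library, Tat (0.16) was -0.035 to 0.81 without 1 library, Tdo2 (0.067) was -0.17 to 0.18 without 1 library, Sdsl (-0.13) was 0.24 in voom, 0.33 without the 3, 0.14 without the 6, 0.25 in voom with the block and -0.24 to 0.34 without 1 library, and Sds (-0.21) was 0.067 in voom and 0.073 in voom with the block.

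The number of all genes called varied more, given here with its range over the 10 alternatives and then without 1 library: 94 (4 to 1473, 15 to 265) for Low Amino Acid and 818 (40 to 1771, 555 to 1007) for Low Isoleucine against Control at 24 months, 158 (75 to 832, 67 to 261) between them, 203 (26 to 467, 56 to 261), 926 (119 to 1371, 385 to 1514) and 3538 (2140 to 3880, 2714 to 4035) for age on Low Amino Acid, Low Isoleucine and Control, and 0 (0 to 52, 0 to 7), 3 (2 to 72, 0 to 6) and 2 (2 to 200, 1 to 3) at 6 months. For Low Amino Acid the effect at 24 months minus that at 6 months gave 0 (0 to 521, 0 to 1), and for Low Isoleucine 0 (0 to 10, 0 to 3). No paired analysis was possible because the replicate numbers were given in accession order and pair no animals. Sdsl, at a few CPM, is the enzyme whose values counting error limits most.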
